A study of Mus musculus with 15 samples.

Results

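The CCR4-NOT and LSM14 genes examined here are 10 of the 20972 genes with a symbol on the array, read by 15 of its 55681 probes: Cnot1, Cnot2, Cnot3, Cnot4, Cnot6, Cnot6l, Cnot7, Cnot8, Lsm14a and Lsm14b. A probe was taken as a member when the RefSeq transcript it was designed for carries one of these 10 symbols. The set was drawn up because 1 probe of Cnot6l was lower and 1 probe of Lsm14b was higher under the n-3 enriched diet than under the standard diet, so the values of that comparison chose the members and are given here as a description, with no test. The chosen probes of Cnot6l and Lsm14b are also described without a test in the other 2 comparisons, since each of these shares 5 arrays with the first and the rule set all 3 diets side by side. The other probes entered through their gene symbols, and tests from those 2 comparisons are given for them. Against ERD no test is read for a probe that was measured on no ERD array.

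Hemibrain RNA of male C57BL/6j mice was labelled with Cy5 and hybridised to 15 Agilent 2-colour arrays, 5 per diet, against Cy3-labelled Universal Mouse Reference RNA, a pool from 11 mouse cell lines. The diets had equal calories and differed in how much n-3 polyunsaturated fatty acid they held relative to n-6. The n-3:n-6 ratio was 7:1 in the enriched diet (ERD), 1:1 in the balanced diet (BLD) and 1:6 in the standard laboratory diet (STD). Mice of 3 weeks of age began their diet and stayed on it for 24 weeks. The labels name no transgene or deletion. The labels do not say whether each array came from a different mouse, so a p-value measures the spread between these arrays. In pieces of whole tissue, fewer cells of a type and less RNA per cell cannot be told apart.

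Messenger RNA decay usually begins with the shortening of the poly(A) tail, and the CCR4-NOT complex is the main deadenylase of the cytoplasm. Its scaffold CNOT1 holds a module of CNOT2 and CNOT3 and a pair of nucleases, one of the CCR4 type (CNOT6 or CNOT6L) and one of the CAF1 type (CNOT7 or CNOT8). LSM14A and LSM14B are RNA-binding proteins of P-bodies, the cytoplasmic granules that hold repressed mRNA together with decapping factors such as DDX6. In mouse oocytes Cnot6l takes part in clearing maternal mRNA and Lsm14b in storing it. In neurons, local translation and decay of mRNA draw on the same machinery.

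Values are log2 ratios of hemibrain over reference RNA after background correction and normalisation within each array, and a difference between diets is a difference of mean log2 ratios with its standard error (SE) from limma. A probe counted as measured on an array when the scanner software called its Cy5 signal well above background. Of the 15 member probes, 13 met the filter of at least 5 such arrays and were tested among 26348 probes. The number of Cy5 spots above background varied from 17720 on ERD array 1 to 31991 on BLD array 4, and the median Cy5 intensity of an array was 21.5 to 32 units over a background of 17 to 20 units. The arrays lay on 8 slides and were scanned on 2 days, and the second day held ERD array 4 and BLD arrays 2, 3 and 4 but no STD array. ERD array 1, BLD array 3 and ERD array 4 correlated least with the others (median r = 0.878, 0.909 and 0.916). Markers of neurons, such as Snap25 and Syt1, fitted the labelled tissue: 7 of 8 genes were above background on every array. Their mean log2 ratio spanned 3.27 to 4.47 in ERD, 4.10 to 4.73 in BLD and 4.19 to 4.72 in STD arrays, and the ERD and STD ranges overlapped. The mean of the endothelial markers was lower on every ERD array than on every STD array. It spanned 0.59 to 0.92 in ERD, 0.82 to 1.08 in BLD and 0.94 to 1.13 in STD arrays, with 3 of 6 genes above background on every array, and 0 of 6 probes passed the threshold in limma (1 lower at an unadjusted p under 0.05). Oligodendrocyte markers spanned 1.93 to 2.63 in ERD, 2.39 to 2.81 in BLD and 2.57 to 2.81 in STD arrays, and 10 of their 11 probes had a lower mean in ERD than in STD (median difference -0.24, 0 past the threshold in limma and 1 lower at an unadjusted p under 0.05). Astrocyte markers spanned 2.49 to 3.34 in ERD, 2.86 to 3.45 in BLD and 2.84 to 3.31 in STD arrays, and microglia markers spanned 1.13 to 1.5 in ERD, 1.33 to 1.60 in BLD and 1.26 to 1.44 in STD arrays. Blood markers spanned 3.07 to 3.52 in ERD, 2.84 to 4.01 in BLD and 3.06 to 3.49 in STD arrays, and choroid plexus markers 1.83 to 2.33 in ERD, 1.90 to 2.42 in BLD and 2.10 to 2.68 in STD arrays. Lower means in ERD than in STD were also frequent in other lists, while 51.7% of all probes tested were higher. They were found for 8 of 11 neuron, 9 of 11 astrocyte, 8 of 12 microglia and 4 of 5 choroid plexus probes. For endothelial markers it was 5 of 6 and for blood 2 of 4. At an unadjusted p under 0.05 in limma, 2 neuron and 3 astrocyte probes were lower and 1 of each list was higher. Microglia had 1 lower and 1 higher, and choroid plexus 1 lower. The part of such shifts in the differences below was not tested.

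Probe sequences were not used here. The promoters of Cnot6l and Lsm14b are shown, as the regulatory sequence of the 2 genes whose probes differed between diets. Each window runs from 250 bases before to 50 bases after the RefSeq start (build GRCm38.p6), 5′ to 3′ on the gene's strand. Capitals mark GC boxes (GGGCGG on either strand) and CCAAT boxes (CCAAT on either strand). The Cnot6l window, the most upstream of 3 for this gene, lies at chr5:96161941-96162240 on the minus strand, and the Lsm14b window lies at chr2:180024737-180025036 on the plus strand.
Cnot6l: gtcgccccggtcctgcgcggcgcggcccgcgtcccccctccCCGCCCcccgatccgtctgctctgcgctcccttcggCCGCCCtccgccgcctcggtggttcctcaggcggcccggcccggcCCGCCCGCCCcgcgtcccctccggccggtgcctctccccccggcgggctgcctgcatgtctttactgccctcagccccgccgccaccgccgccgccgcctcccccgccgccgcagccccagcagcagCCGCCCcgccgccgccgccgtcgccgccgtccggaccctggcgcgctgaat
Lsm14b: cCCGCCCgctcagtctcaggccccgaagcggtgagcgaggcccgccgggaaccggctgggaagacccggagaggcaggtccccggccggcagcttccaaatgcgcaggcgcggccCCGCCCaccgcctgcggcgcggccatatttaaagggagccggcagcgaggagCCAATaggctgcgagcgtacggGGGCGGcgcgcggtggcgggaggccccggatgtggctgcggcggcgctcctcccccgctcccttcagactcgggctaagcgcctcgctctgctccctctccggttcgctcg
The Cnot6l window held 5 GC boxes and no CCAAT box, had a GC content of 82.7% and held 49 CpG dinucleotides. The Lsm14b window held 3 GC boxes and 1 CCAAT box, had a GC content of 74.3% and held 40 CpG dinucleotides. RefSeq windows were matched for 8 of the 10 genes, 14 windows in all, and 10 of the 14 (71.4%) held a GC box, against 35.7% of all 32841 windows. A CCAAT box was present in 3 of the 14 (21.4%), against 37.4% of all windows. A TATA box (TATAAA on either strand) was in 0 of the 14, against 13.6% of all windows, and a half-site of nuclear receptors (AGGTCA on either strand) was in 1 of the 14, against 16.3%. The median GC content was 67.2% for the members' windows, against 52.7% for all windows. These matches describe letters in a window and not sites in use.

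Cnot6l encodes a CCR4-type nuclease, and its probe A_55_P2121945, designed for transcript NM_001285511, was the lower one under both n-3 richer diets. Its log2 ratios were -1.91, -1.90, -2.43, -2.16 and -2.05 in ERD arrays 1 to 5. They were -1.75, -1.94, -1.79, -2.05 and -1.95 in BLD arrays and -1.29, -1.31, -1.56, -1.46 and -1.01 in STD arrays. All 10 arrays of the ERD and BLD diets lay below all 5 STD arrays, whereas ERD and BLD arrays overlapped. The means were -2.09 ± 0.22 in ERD, -1.90 ± 0.12 in BLD and -1.33 ± 0.21 in STD (SD, n = 5 each). The signal was 0.59-fold of STD in ERD, a difference of -0.76 ± 0.13 (SE), in the comparison that chose the probe. In BLD it was 0.674-fold of STD, a difference of -0.57 ± 0.13 (SE). The difference of ERD against BLD was -0.19 ± 0.13 (SE). In order of level, ERD and BLD at the low end were not separated beyond their spread, and STD was highest.

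The difference in Cnot6l lay mainly in the hemibrain channel. With Cy5 alone, normalised between arrays, ERD differed from STD by -0.79 and BLD from STD by -0.75. The reference channel alone gave -0.09 ± 0.06 and -0.18 ± 0.06 (SE). The reference was not even between BLD and STD arrays. With Cy3 alone, 4272 of 26348 probes had an unadjusted p under 0.05 in limma there, against 522 in ERD against STD. Slides 4, 5 and 7 each held 1 ERD and 1 STD array, and there the differences of ERD against STD were -0.59, -1.14 and -0.59. Slide 7 also held a BLD array, with a difference of -0.49 from its STD array. Among arrays of the first scan day alone, ERD differed from STD by -0.74 (4 against 5 arrays) and BLD from STD by -0.53 (2 against 5 arrays). With median centring in place of loess the BLD difference shrank to -0.22, while that of ERD against STD was -0.77.

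The second Cnot6l probe, A_51_P208031, was designed for another transcript, NM_178854, and was barely above background. It was called well above background on 0 of 5 ERD, 2 of 5 BLD and 3 of 5 STD arrays, with Cy5 intensities over local background of 2 to 7 units in ERD, 2.5 to 29 units in BLD and 4 to 19 units in STD. Its log2 ratios averaged -0.93 ± 0.34 in ERD, -1.13 ± 0.47 in BLD and -0.93 ± 0.27 in STD (SD, n = 5 each), and the groups overlapped. The difference of ERD against STD was 0.01 with the offset of 50 units used here, -0.71 with an offset of 1 and -2.01 from the scanner software's own processed signals. For BLD against STD it was -0.19 ± 0.22 (SE, adjusted p = 0.784 in limma, Benjamini-Hochberg over all 26348 probes, threshold 0.05). In ERD this probe has only an upper bound. The mean Cy5 signal of STD was 1.04-fold that bound, a floor for STD over ERD without allowance for spread. Both signals carry the offset of 50 units, which shrinks this fold, so the probe gives no check of the first one.

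**Figure D1:**
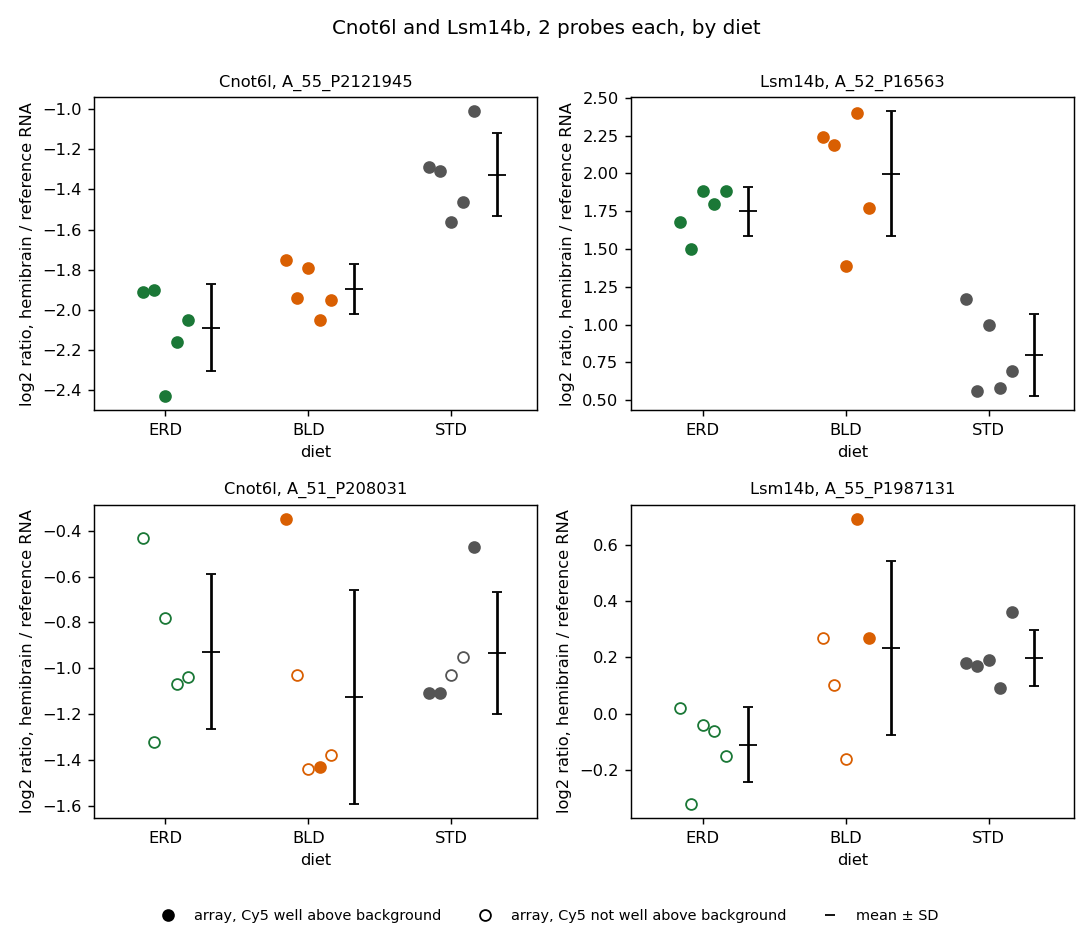
Log2 ratio of hemibrain over reference RNA (vertical axes, which differ between panels) on each of 5 arrays per diet, for both probes of Cnot6l and of Lsm14b, with the mean and SD beside the points. Filled points had Cy5 well above background: both upper probes were measured on all 15 arrays, whereas the lower Cnot6l and Lsm14b probes were measured on 5 and 7 of 15, none of them ERD arrays.

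Lsm14b encodes the P-body protein LSM14B, and its probe A_52_P16563, designed for transcript NM_177727, was the higher one under both n-3 richer diets. Its log2 ratios were 1.68, 1.5, 1.88, 1.80 and 1.88 in ERD arrays 1 to 5. They were 2.24, 2.19, 1.39, 2.40 and 1.77 in BLD arrays and 1.17, 0.56, 1.00, 0.58 and 0.69 in STD arrays. All ERD and BLD arrays lay above all STD arrays, and the lowest of them was BLD array 3. The means were 1.75 ± 0.16 in ERD, 2.0 ± 0.41 in BLD and 0.80 ± 0.27 in STD (SD, n = 5 each). The signal was 1.93-fold of STD in ERD, a difference of 0.95 ± 0.18 (SE), in the comparison that chose the probe.

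In BLD the Lsm14b probe was 2.3-fold of STD, a difference of 1.20 ± 0.18 (SE). Over 32 alternative settings this difference was 1.02 to 1.35, with the highest value without BLD array 3. The difference of ERD against BLD was -0.25 ± 0.18 (SE), and the arrays of these 2 diets overlapped.

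As for Cnot6l, the Lsm14b difference lay mainly in the hemibrain channel. Cy5 alone gave 0.96 for ERD and 1.08 for BLD against STD, and Cy3 alone gave 0.17 ± 0.12 and 0.18 ± 0.12 (SE). Within slides 4, 5 and 7 ERD exceeded STD by 0.94, 0.71 and 1.30, and within slide 7 BLD exceeded STD by 1.19. Arrays of the first scan day gave 0.94 for ERD and 1.21 for BLD against STD.

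The second Lsm14b probe, A_55_P1987131, was designed for the same transcript and was at the edge of detection. It was well above background on 0 of 5 ERD, 2 of 5 BLD and 5 of 5 STD arrays, and so met the filter of 5 arrays without any ERD array. Its log2 ratios were 0.02, -0.32, -0.04, -0.06 and -0.15 in ERD arrays, 0.27, 0.10, -0.16, 0.69 and 0.27 in BLD arrays, and 0.18, 0.17, 0.19, 0.09 and 0.36 in STD arrays. The ERD values are at background level, and they lay below all STD values. BLD arrays overlapped with both. With the ERD signal taken as an upper bound, the mean Cy5 signal of STD was 1.13-fold that bound, without allowance for spread. Both signals carry the offset of 50 units, which shrinks this fold. Without the offset, the median Cy5 intensity over local background was 10 units in STD and 3.5 units in ERD. Cy5 alone, normalised between arrays, gave a difference of -0.18 ± 0.08 (SE) for ERD against STD. The Cy5 intensity over background was at most 5.5 units in ERD, 33.5 units in BLD and 12.5 units in STD, against 144 to 384, 303.5 to 716 and 94 to 201 units for the other probe of the gene. For BLD against STD its difference was 0.04 ± 0.13 (SE, adjusted p = 0.947 in limma), where the first probe gave 1.20. The higher BLD level of the first probe was thus not seen on this dim one, measured on 2 of 5 BLD arrays. For ERD against BLD it was -0.35, but the ERD values are at background level, so no test of it is read. The size of the ERD difference from STD depended on the handling of background: it was -0.31 with the offset of 50, -1.37 with an offset of 1 and -1.93 from the processed signals. This probe gives no measured level in ERD to set beside that of the first, and which part of the transcript each one reads was not tested.

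**Figure D2:**
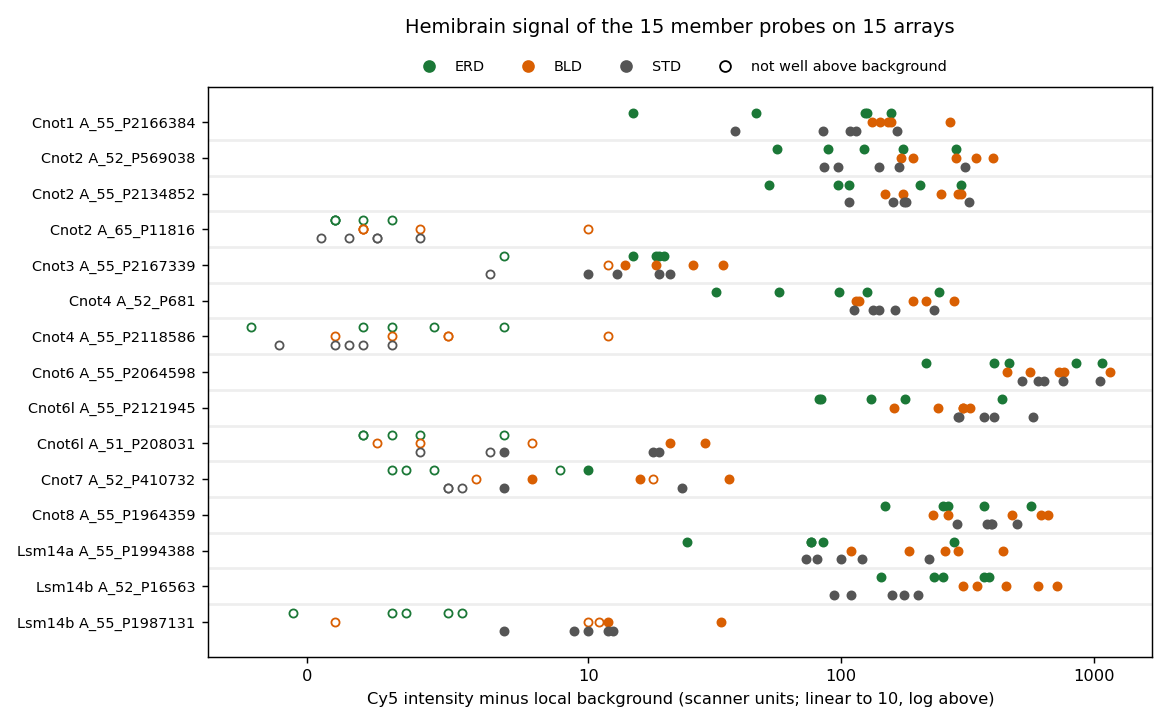
Cy5 intensity minus local background (horizontal axis, scanner units, linear up to 10 and logarithmic above) of the 15 member probes on the 5 arrays of each diet. Open points were not well above background: the unmeasured probes of Cnot2 and Cnot4 reach at most 12 units, and the dim probes of Cnot6l and Lsm14b at most 29 and 33.5 units.

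Lsm14a, the paralog of Lsm14b and a protein needed for P-body assembly in human cells, spread widely between arrays of one diet. Its probe A_55_P1994388 had log2 ratios of -1.11, -1.44, -0.63, 0.31 and -1.04 in ERD, -0.21, 0.37, -0.17, 0.24 and -0.93 in BLD, and -1.06, -0.44, -0.83, -0.48 and -0.99 in STD arrays. The groups overlapped, and the 4 arrays of the second scan day (0.31 in ERD, and 0.37, -0.17 and 0.24 in BLD) were the 4 highest of the 15. BLD exceeded STD by 0.62 ± 0.30 (SE, adjusted p = 0.487 in limma), and ERD differed from BLD by -0.64 ± 0.30 (SE, adjusted p = 0.47). Within the first scan day the BLD difference was 0.19 (2 against 5 arrays), and with scan day as a term it was 0.03 ± 0.24 (SE). With slide as a fixed term it was -0.23. The ERD difference from STD was -0.02.

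The scaffold gene Cnot1 differed little between diets. Its probe A_55_P2166384 had log2 ratios of -0.92, -1.14, -0.87, -0.94 and -0.33 in ERD, -0.47, -0.80, -1.20, -0.81 and -0.77 in BLD, and -0.79, -0.80, -0.60, -0.86 and -1.27 in STD arrays. The differences were 0.02 ± 0.17 for ERD against STD and 0.05 ± 0.17 for BLD against STD (SE). The 95% interval of the BLD difference was -0.30 to 0.41 (adjusted p = 0.936 in limma).

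Cnot2 and Cnot3, of the NOT module, were read by 3 probes and 1 probe. Probes A_52_P569038 and A_55_P2134852 of Cnot2 were designed for the same transcript, NM_001037846, and were above background on all 15 arrays, yet their log2 ratios had a correlation of only r = 0.109 over the 15 arrays. The first averaged -0.25 ± 0.17 in ERD, -0.07 ± 0.12 in BLD and -0.38 ± 0.36 in STD (SD, n = 5 each), and BLD exceeded STD by 0.31 ± 0.15 (SE, adjusted p = 0.492 in limma). The second averaged -0.54 ± 0.40 in ERD, -0.32 ± 0.35 in BLD and -0.47 ± 0.19 in STD (SD, n = 5 each), with a BLD difference of 0.15 ± 0.19 (SE, adjusted p = 0.815 in limma). The third Cnot2 probe, A_65_P11816 for transcript NM_001037848, was not well above background on any array and was not tested. Cnot3 (A_55_P2167339) was dim, at 6.5 to 34 units over background, and was measured on 4 of 5 arrays in each diet. Its log2 ratios averaged 0.09 ± 0.11 in ERD, 0.07 ± 0.13 in BLD and -0.07 ± 0.10 in STD (SD, n = 5 each), and BLD exceeded STD by 0.14 ± 0.10 (SE, adjusted p = 0.625 in limma).

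Cnot4 encodes a ubiquitin ligase that associates with the complex. Its probe A_52_P681 had log2 ratios of -0.28, 0.21, -0.27, -0.20 and 0.04 in ERD, -0.27, -0.11, -0.05, 0.14 and 0.33 in BLD, and 0.09, 0.26, -0.06, 0.24 and 0.48 in STD arrays. The groups overlapped, and only 1 STD array was below 0, against 3 arrays each of ERD and BLD. The difference was -0.30 ± 0.14 for ERD against STD and -0.20 ± 0.14 for BLD against STD (SE, adjusted p = 0.636 for the second in limma). The other Cnot4 probe, A_55_P2118586 for transcript NM_001164413, was above background on no array.

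Of the other nucleases, Cnot6 (CCR4 type) is the paralog of Cnot6l. Its probe A_55_P2064598 averaged -0.92 ± 0.59 in ERD, -0.98 ± 0.23 in BLD and -0.88 ± 0.18 in STD (SD, n = 5 each). The ERD arrays spread from -1.72 to -0.23 and covered both other groups. The differences were -0.04 ± 0.22 for ERD and -0.10 ± 0.22 for BLD against STD (SE), and the 95% interval of the BLD difference was -0.58 to 0.37 (adjusted p = 0.899 in limma). Both CAF1-type nucleases overlapped between diets as well. Cnot8 (A_55_P1964359) averaged 0.03 ± 0.45 in ERD, -0.15 ± 0.33 in BLD and 0.05 ± 0.21 in STD (SD, n = 5 each), with a BLD difference of -0.20 ± 0.20 (SE, adjusted p = 0.767 in limma). Cnot7 (A_52_P410732) was measured on 1 ERD, 3 BLD and 3 STD arrays. It averaged -0.56 ± 0.44 in ERD, -0.72 ± 0.41 in BLD and -0.48 ± 0.15 in STD (SD, n = 5 each), with a BLD difference of -0.24 ± 0.21 (SE, adjusted p = 0.712 in limma). Its reference signal was not even between scan days: the 4 arrays of the second day had 452.5 to 583 Cy3 units over background, against 133.5 to 290.5 units on the other 11. Within the first scan day the BLD difference of Cnot7 was 0.07 (2 against 5 arrays), and with scan day as a term it was 0.12 ± 0.20 (SE).

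**Figure D3:**
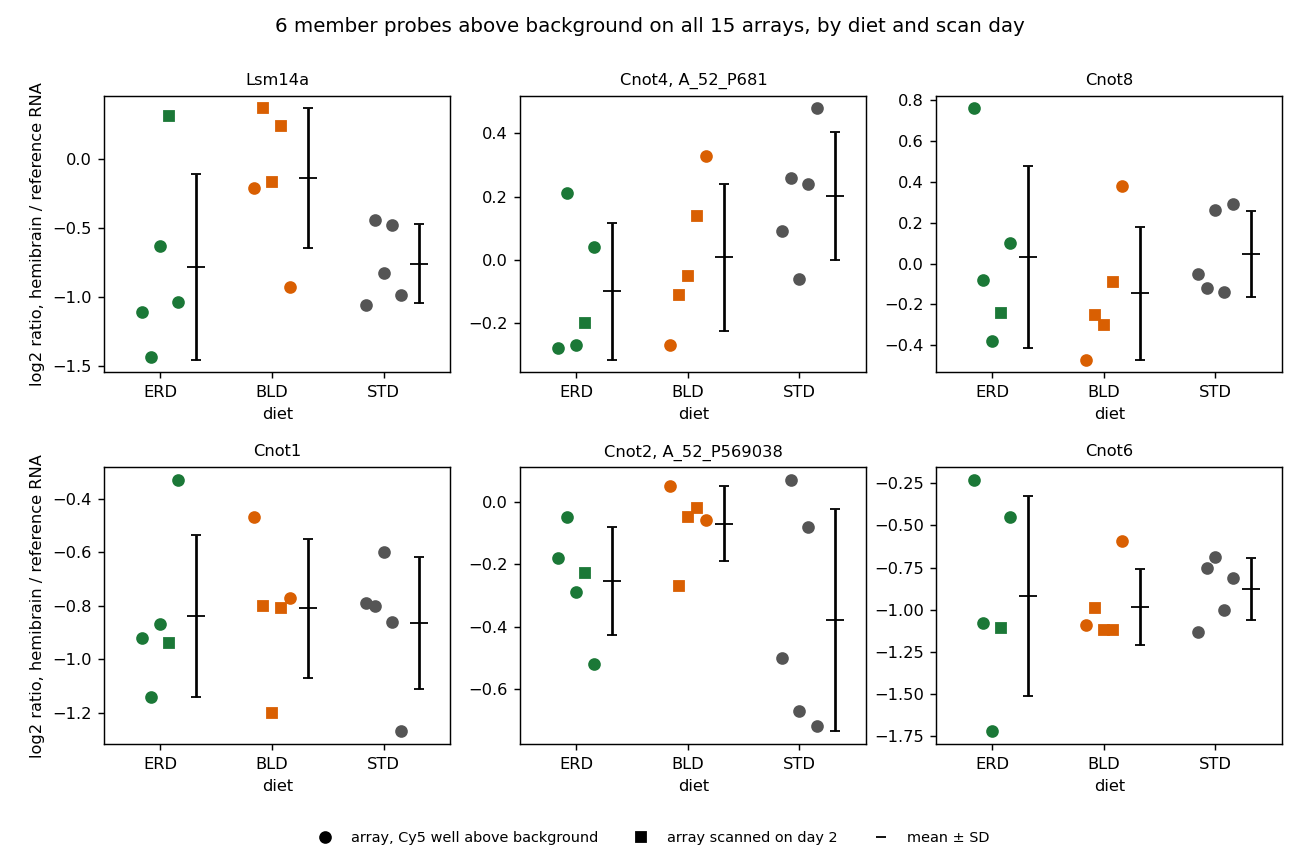
Log2 ratio of hemibrain over reference RNA (vertical axes, which differ between panels) for 6 member probes above background on all 15 arrays, by diet, with squares for the second scan day and the mean and SD beside the points. The diets overlap in every panel, and the squares of Lsm14a lie between -0.17 and 0.37.

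Over the 13 member probes tested, 2 passed the adjusted threshold in ERD against STD, where 0.209% of all probes did. Both are the probes the set was chosen on, so nothing is read from that count. In BLD against STD 0 of 13 passed, where 0.00759% of all probes did, and 2, again the chosen probes, had an unadjusted p under 0.05 in limma, where 10.3% of all probes did. Nothing is read from those 2 either. In ERD against BLD 0 of 13 passed, as for all probes (0%), and 2 had an unadjusted p under 0.05, where 10.6% of all probes did. These 2 were Lsm14a and the dim Lsm14b probe. The latter was measured on no ERD array, so no test is read for it and the count is not a result about the members. The members' groups did not overlap for 3 probes in ERD against STD (3.76% of all probes), for 2 in BLD against STD (2.79%) and for 0 in ERD against BLD (1.40%). In ERD against STD these were the chosen probes and the dim Lsm14b probe, whose ERD values are at background level, and in BLD against STD the chosen probes. Nothing is read from these counts. The median difference over the 13 probes was -0.02, 0.04 and -0.11 in the 3 comparisons, against 0.01, 0.05 and -0.04 over all probes tested. The difference was within 0.35 of 0 for 11, 10 and 12 of the 13 probes, with a median SE of 0.163 over all probes.

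**Figure D4:**
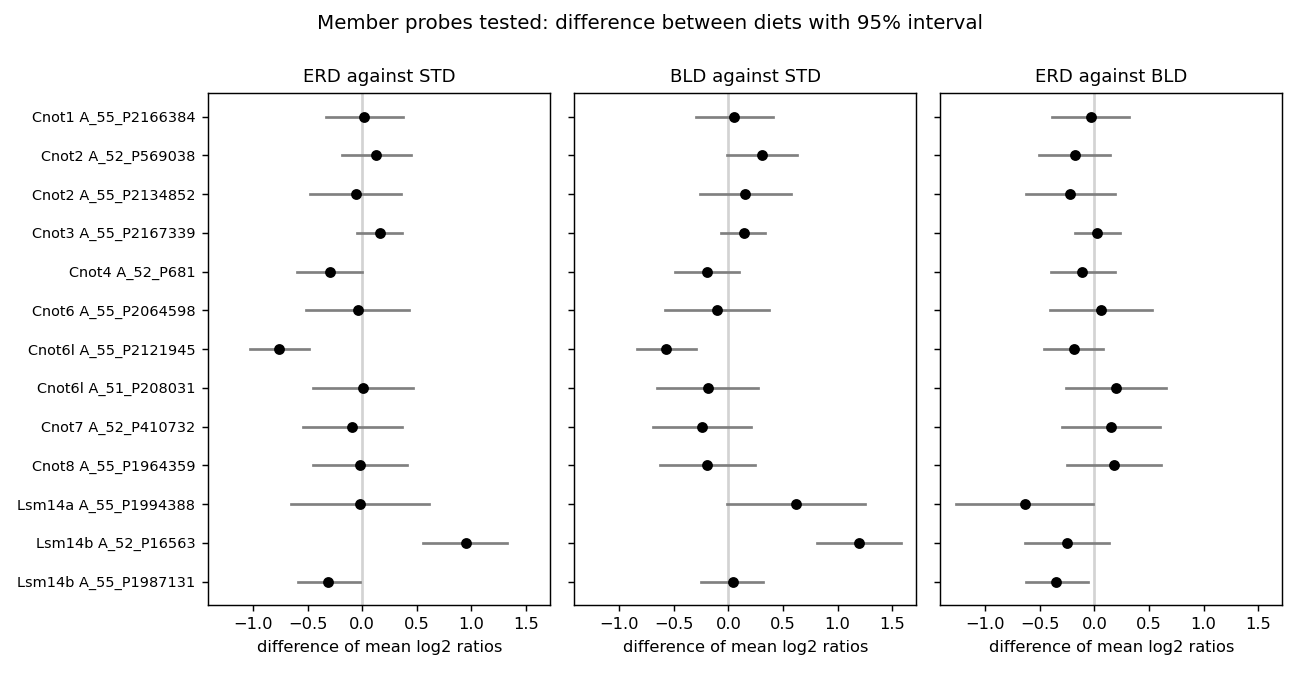
Difference of mean log2 ratios between diets (horizontal axis) with its 95% interval for the 13 member probes tested, in the 3 comparisons. Cnot6l A_55_P2121945 (-0.76 and -0.57) and Lsm14b A_52_P16563 (0.95 and 1.20) stand away from 0 against STD in both n-3 richer diets, and the ERD against STD panel is the comparison that chose them.

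The members did not move as a block from array to array. Among the 9 member probes above background on all 15 arrays, the 36 pairs had a median Pearson correlation of -0.0536, and 3 pairs each were above 0.5 and below -0.5. Cnot1 and Cnot2 had r = 0.85 with probe A_55_P2134852 of Cnot2, but r = -0.048 with its probe A_52_P569038. The nucleases Cnot6 and Cnot8 had r = 0.814. Cnot8 and Lsm14a had r = -0.577. The chosen probes of Cnot6l and Lsm14b had r = -0.785 (rho = -0.743), a sign that the choice of members for opposite diet differences fixes. All such values share arrays, slides and normalisation and are descriptions.

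The probes of other genes whose pattern was most like that of the chosen probes were named by their Pearson correlation over the 15 arrays. For Cnot6l they were Rab43 (r = 0.88), Tfg (r = 0.862) and Nsd2 (r = 0.861). For Lsm14b they were Gatad2b (r = 0.938), Raly (r = 0.895) and Cspg4 (r = 0.886). Their differences of ERD against STD were -0.56 for Rab43, -0.69 for Tfg and -0.91 for Nsd2, and 0.73 for Gatad2b, 2.02 for Raly and 0.72 for Cspg4. In BLD against STD they were -0.51 for Rab43, -0.49 for Tfg and -0.51 for Nsd2, and 0.99 for Gatad2b, 2.23 for Raly and 0.68 for Cspg4. These genes were picked for likeness, over the same arrays, to probes chosen on a diet difference. The sign of their differences largely follows from that choice, and the values are descriptions. A correlation above 0.8 was reached by 23 probes for Cnot6l and by 17 for Lsm14b, among the 26348 probes tested.

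Among 6 lists of other genes of mRNA decay, 78 of 84 genes were tested with 96 probes, and 0 probes passed the threshold in any comparison. At an unadjusted p under 0.05 in limma, 7 probes were higher and 3 lower in ERD against STD (10.4%, where 14.5% of all probes had such a p). In BLD against STD 7 were higher and 4 lower of the 96, where 10.3% of all probes had such a p, and in ERD against BLD 4 were higher and 8 lower (12.5%, where 10.6% of all probes did).

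Among the partners of the complex (9 genes, 8 tested), the smallest p was that of Btg1, an antiproliferative protein that binds the CAF1-type nucleases. Its log2 ratio had a lowest value of -3.46, a median of -2.16 and a highest value of -1.55 in ERD, a range of -2.03 to -1.48 with a median of -1.79 in BLD, and a range of -1.47 to -0.63 with a median of -1.42 in STD. All ERD and all BLD arrays lay below all STD arrays. The difference of ERD against STD was -1.28 ± 0.32 (SE), or 0.411-fold, and its adjusted p of 0.11 in limma did not pass. Among the alternative settings it passed only without ERD array 5, where the difference was -1.53 with an adjusted p of 0.0477 in limma. In BLD against STD it was -0.49 ± 0.32 (SE, adjusted p = 0.59). Btg3, of the same family, differed by -0.28 ± 0.16 in ERD against STD (SE, adjusted p = 0.436 in limma). Among the other deadenylases (8 genes, all tested), Toe1 differed by 0.38 ± 0.13 (SE, adjusted p = 0.207) and Angel1 by 0.15 ± 0.10 (SE, adjusted p = 0.506) in ERD against STD.

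Among the proteins that bring the complex to mRNA (23 genes, 22 tested), Pum2, which binds Pumilio elements, had a log2 ratio of 1.08 to 1.93 in ERD, 0.86 to 1.93 in BLD and 0.68 to 1.03 in STD arrays. Its difference of ERD against STD was 0.61 ± 0.20 (SE, adjusted p = 0.196 in limma), with all ERD arrays above all STD arrays. Ago4, an Argonaute protein, differed by -0.33 ± 0.15 in ERD against STD (SE, adjusted p = 0.323). Among decapping and P-body genes (20 genes, 19 tested), which act with LSM14 proteins, the scavenger decapping enzyme Dcps and Lsm3 each differed by 0.40 in ERD against STD (SE 0.14 and 0.17, adjusted p = 0.214 and 0.307 in limma). In the list of the RNA exosome, which degrades RNA from its 3′ end, 12 of 15 genes were found by symbol and all 12 were tested. The nuclease Dis3 had log2 ratios of -1.60 to -1.17 in ERD, -2.12 to -1.71 in BLD and -2.08 to -1.73 in STD arrays. ERD exceeded STD by 0.42 ± 0.12 (SE, adjusted p = 0.158 in limma), and ERD exceeded BLD by 0.41 ± 0.12 (SE, adjusted p = 0.311). Its core subunit Exosc7 differed by 0.38 ± 0.14 in ERD against STD (SE, adjusted p = 0.231). Among genes of poly(A)-binding proteins and their regulators (9 genes, all tested), Paip2b differed by -0.47 ± 0.20 (SE, adjusted p = 0.305) and Pabpn1 by 0.21 ± 0.13 (SE, adjusted p = 0.462) in ERD against STD.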

How the data were processed

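The deposited files are the authors' Agilent Feature Extraction output, with Cy5 and Cy3 intensity and background of 62976 spots per array (version 11.5.1.1 and build mm9 per the file headers, version 10.7 per the submitters' processing notes). The log10 ratio of the authors' deposited value table is that output's own ratio and served as an alternative. Groups were taken from the diet label, since sample titles carry the same control word in all diets. All arrays had hemibrain in Cy5, so a dye effect could not be estimated. Replicates were numbered in accession order and do not pair arrays.

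Median intensities were corrected with normexp (offset 50) and normalised by loess within arrays in limma 3.58.1 (R 4.3.3). Spots with outlier flags (0.57%) were left out, and spots of a probe were averaged. Probes needed Cy5 well above background on at least 5 of 15 arrays and at least 8 values, and Benjamini-Hochberg adjusted p under 0.05 counted as passing. One model covered the 3 diets, and the precision is limited by 5 arrays per diet. The method was tested on simulated data with 26348 probes, where it called 66% of 50 probes changed by 1 on the log2 scale in ERD against STD and 28% of 50 changed by 0.5. The simulated noise was independent between arrays, without slide or scan-day effects, and probes with larger changes were in the same fit. These shares need not hold for the measured arrays. Symbols came from RefSeq through the probes' transcript identifiers (27656 probes). Slides, scan day, normalisation, filters and left-out arrays were varied in 33 settings. Named probes were all member probes, the 2 smallest p-values in ERD against STD per list, and the 3 probes most correlated with each chosen probe. Members and lists were chosen with earlier results of these data known. Promoters were matched with pandas 2.3.3. DNA methylation and microRNA data of the study were not analysed here.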

Additional observations from a re-analysis of the deposited data

Results flagged for a closer look

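In 39 groups of 5 arrays examined (13 probes in 3 diets), 3 had 1 array far from the other 4, as Dixon's test does by chance in about 1 of 20 groups. ERD array 3 had a log2 ratio of 0.28 for Cnot3, where the next ERD array had 0.07. BLD array 5 had -0.59 for Cnot6, where the next BLD array had -0.99. STD array 5 had -0.47 for the dim Cnot6l probe A_51_P208031, where the next STD array had -0.95. None of these is a chosen probe of Cnot6l or Lsm14b.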

How the results depend on the processing

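The differences of the chosen Cnot6l probe (ERD against STD, -0.93 to -0.68) and of the chosen Lsm14b probe (0.66 to 1.04) kept their sign in all 32 alternatives (Cy3 alone aside). The adjusted threshold was passed in 18 and 11 of the 32, among them 7 and 3 of the 15 that left out 1 array. Both probes were chosen on this comparison, so their sign was set by that choice and no test is read from these counts. The count of 55 probes past the threshold in ERD against STD became 0 with median centring, with Cy3 alone and without the 3 least correlated arrays, 36 with probes above background on all arrays, 246 with array weights, 25 with only the 2 diets fitted, 1 with slide as a fixed block, 118 with slide as a random block and 8 with scan day as a block, and 5 to 199 without single arrays (5 without ERD array 4 or STD array 2, 7 without STD array 4 or 5, 9 without BLD array 2, 12 without BLD array 4 or 5 or STD array 3, 20 without ERD array 2 or STD array 1, and 199 without ERD array 3). The 2 members among them became 0 with processed signals, median centring, Cy3 alone, slide or scan day as a fixed block or without the 3 arrays, 1 with an offset of 1, no background correction, no filter, a variance trend or only the 2 diets, and 0 to 2 without single arrays. The 2 probes of BLD against STD became 1 with processed signals, an offset of 1, no background correction, median centring, only the 2 diets or scan day, 5 with Cy3 alone or no filter, 6 with probes above background on all arrays, 41 with array weights and 0 with slide as a fixed block, and 1 to 12 without single arrays (12 without STD array 1, 9 without BLD array 1 and 5 without BLD array 3). The member count there, 0, became 1 with probes above background on all arrays, with array weights and without the 3 arrays, and 0 to 1 without single arrays; each time the probe was Lsm14b A_52_P16563. In ERD against BLD 0 became 1 with only the 2 diets or slide as a fixed block, and 0 to 1 without single arrays, with 0 members throughout. With Cy3 alone Raly gave -0.01 in ERD and -0.18 in BLD against STD. The causes of these changes were not tested. For replicate numbers, no paired analysis was possible because they follow accession order. Arrays sharing a slide were compared through the slide blocks above. The limit for dim probes is their signal over background: 5 of 15 member probes were not well above background on at least 8 arrays.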
